A study of Mus musculus with 12 samples.

Results

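The genes Kif5c, Atg12, Aplp2, Marcks, Zfand3, Ddr1, Tm2d2, Pappa, Apbb1 and Ikbkg share a pattern: 1 probe set of each separates the 2 mouse lines of the study by a wide margin. All probe sets annotated to these 10 symbols were taken, 53 of the 45037 tested. RNA came from the geniculate ganglion, which holds the taste neurons of the facial nerve, of mouse embryos at embryonic day 14.5. The BDNF line, on C57BL/6J, gave the groups BDNF wild type and BDNF knockout. The NT4 line, on 129, gave NT4 wild type and NT4 knockout. Each group had 3 arrays, titled as biological replicates. Strain, colony and line cannot be told apart, and the sources used here do not say how many embryos a sample holds.

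The genes were chosen by the difference between the wild types on 1 probe set each. Among probe sets with 1 symbol they held ranks 1 to 5 of those lower in the NT4 wild type and ranks 1, 2, 4, 5 and 6 of those higher. Just outside stood Cnn3 on the lower side, at a log2 difference of −7.71 between the wild types, after Zfand3 at −8.46. On the higher side Pebp4, at 5.24, followed Ikbkg at 5.26, and rank 3 was Gm33628 at 5.64, which has a single probe set. Line differences of the 10 genes are therefore given as descriptions, without a test.

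An array of this type reads a gene through probe sets, each a group of short probes against 1 stretch of its transcripts. Several probe sets of a gene can read different exons, ends or transcript forms. A change in the level of the whole gene would be read by every probe set that lies in its common transcript. In a suffix, x marks a probe set in which some probes also match other sequences, s a probe set shared by transcripts of different genes, and a one shared by transcript forms of 1 gene. The stretch that each probe set reads was not analysed here.

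Array medians lay between 168 and 201, and 5.87% to 7.91% of the probe sets of an array read under 20. Across probe sets, r between log2 values was 0.967 to 0.985 for replicates and 0.919 to 0.945 for arrays of different lines. Replicate 2 of both wild types stood apart in sex-linked genes, with log2 Xist above the mean of 3 Y-linked genes by 8.09 in the BDNF line and 7.92 in the NT4 line, against 2.79 to 5.09 elsewhere. In each knockout group replicate 2 was also the highest, at 4.65 for BDNF and 5.09 for NT4. Sensory neuron genes were bright in all groups: mean intensity was 8183 in the BDNF wild type and 8170 in the NT4 wild type for P2rx3, the ATP receptor subunit of taste afferents, and 7578 and 7557 for the sensory neuron factor Isl1. Phox2a, a factor of visceral neurons, read 1223 and 418.

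Kif5c, a heavy chain of kinesin-1, the motor that carries cargo outward along axons, gave the widest split of the 10 genes. Its probe set 1457255_x_at (chromosome 2) read 4792, 5059 and 5258 in the BDNF wild type and 4984, 5285 and 5204 in the BDNF knockout. The corresponding NT4 intensities were 9.25, 3.78 and 1.0 in the wild type and 4.82, 16.9 and 2.52 in the knockout. All 6 BDNF-line arrays were high and all 6 NT4-line arrays sat at the bottom of the scale, a log2 difference of −10.59 between the wild types and −9.77 between the knockouts. The other 3 Kif5c probe sets differed between lines by −0.14 to 0.12. One of them, 1455266_at, also had no overlap between the lines, at 10200 to 10727 against 8716 to 9921. Its line difference of −0.14 was −0.06 after quantile normalization and −0.22 with arrays centred on their median.

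Aplp2 encodes a membrane protein of the amyloid precursor family. Probe set 1421888_x_at (chromosome 9) read 3343, 3180 and 3528 in the BDNF wild type and 3054, 3239 and 3463 in the BDNF knockout. It read 3.69, 3.44 and 5.83 in the NT4 wild type and 4.26, 7.11 and 5.18 in the NT4 knockout. The lines did not overlap (log2 difference −9.64 in the wild types, −9.23 in the knockouts), while the other 4 Aplp2 probe sets differed by 0.02 to 0.10 and overlapped. 

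Apbb1, whose product is known as Fe65, an adaptor that binds the inner tail of the amyloid precursor family, went the other way. Its 1423893_x_at (chromosome 7) read 192, 108 and 181 in the BDNF wild type, 201, 164 and 158 in the BDNF knockout, 6047, 6169 and 6203 in the NT4 wild type and 5856, 6184 and 6248 in the NT4 knockout. Each NT4-line array was thus far above each BDNF-line array, by 5.31 on the log2 scale in the wild types and 5.14 in the knockouts. Here the low line was not at the bottom of the scale, with 38.7% to 53.6% of an array's probe sets reading at or under it. The second Apbb1 probe set, 1423892_at, differed by −0.15 and overlapped.

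Marcks codes for a substrate of protein kinase C that links the plasma membrane to actin. On 1437034_x_at (chromosome 10) intensities were 6244, 6631 and 6673 in the BDNF wild type, 6866, 6775 and 6492 in the BDNF knockout, 23.4, 11.2 and 17.4 in the NT4 wild type and 26.7, 28.2 and 29.4 in the NT4 knockout. The lines were apart by −8.62 (wild types) and −7.90 (knockouts). A second Marcks probe set split in the opposite direction: 1430311_at read 264, 250 and 190 (wild type) and 238, 150 and 262 (knockout) in the BDNF line, and 852, 859 and 816 (wild type) and 1120, 835 and 1022 (knockout) in the NT4 line. That is a line difference of 2.04. The remaining 5 Marcks probe sets lay between −0.06 and 0.15, and 1 of them, 1415972_at, did not overlap, at 7818 to 8289 against 8454 to 9638. Its difference of 0.15 was 0.23 after quantile normalization and 0.07 with centred arrays.

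Ddr1, a receptor tyrosine kinase that binds collagen, has 8 probe sets, and they did not move together. Its 1437619_x_at (chromosome 17) read 3.82, 2.27 and 2.42 in the BDNF wild type and 4.38, 5.06 and 4.02 in the BDNF knockout. It read 1006, 1033 and 1003 in the NT4 wild type and 1443, 1128 and 916 in the NT4 knockout, higher than in the BDNF line by 8.52 and 8.0. Of the other 7, the probe sets 1435820_x_at, 1456226_x_at, 1439382_x_at and 1415797_at were lower in the NT4 line, by −0.47, −0.49, −0.41 and −0.58, with overlap. The probe sets 1415798_at and 1459990_at differed by −0.16 and 0.33, and 1438367_x_at stayed between 1.57 and 7.62 on all 12 arrays.

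Tm2d2 encodes a small membrane protein with a TM2 domain. Its 1437725_x_at (chromosome 8) read 24.1, 20.7 and 22.8 in the BDNF wild type and 27.9, 21.1 and 21.4 in the BDNF knockout, against 3332, 3423 and 3040 in the NT4 wild type and 3431, 3324 and 3116 in the NT4 knockout. The NT4 line was higher by 7.18 and 7.14. Another probe set, 1456663_x_at, was lower in the NT4 line without overlap, at 94.2 to 164 against 240 to 369 (line difference −1.22). The other 6 were between 0.10 and 0.35 and overlapped.

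Pappa, a secreted protease that frees insulin-like growth factors from their binding proteins, has 3 probe sets. Probe set 1432592_at (chromosome 4) read 3.38, 4.71 and 5.69 in the BDNF wild type, 23.5, 6.40 and 3.18 in the BDNF knockout, 243, 191 and 209 in the NT4 wild type and 225, 230 and 422 in the NT4 knockout. The lines did not overlap (5.57 and 5.16). Its other probe sets, 1427633_a_at and 1432591_at, differed by 0.41 and −0.05 and overlapped.

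Among genes of protein turnover and signalling, Atg12 encodes a ubiquitin-like protein that is joined to Atg5 when autophagosomes form. On 1439457_x_at (chromosome 18) intensities were 3404, 3302 and 3514 in the BDNF wild type, 3647, 3306 and 3513 in the BDNF knockout, 5.19, 7.30 and 1.07 in the NT4 wild type and 3.17, 5.66 and 3.86 in the NT4 knockout. The lines were apart by −9.95 and −9.73, whereas both other Atg12 probe sets overlapped, at −0.06 and 0.03. 

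Zfand3, a protein with an AN1-type zinc finger, showed its split on 1447850_x_at (chromosome 17). This probe set read 2235, 2327 and 2339 in the BDNF wild type, 2447, 2198 and 2016 in the BDNF knockout, 4.50, 7.19 and 8.69 in the NT4 wild type and 3.28, 5.14 and 1.94 in the NT4 knockout. The differences were −8.46 and −9.44. A smaller separation with the same sign was present on 1441948_x_at, with 3020 to 3570 against 2017 to 2472 (−0.60), and on 1419955_at, with 1219 to 1459 against 910 to 1204 (−0.33). The other 4 lay between −0.10 and 0.07.

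Ikbkg encodes NEMO, the regulatory subunit of the kinase that activates NF-kB. Its 1421208_at (chromosome X) read 6.19, 9.17 and 13.9 in the BDNF wild type, 7.10, 9.35 and 18.2 in the BDNF knockout, 350, 237 and 536 in the NT4 wild type and 181, 329 and 199 in the NT4 knockout. The NT4 line was higher without overlap, by 5.26 and 4.42. The remaining 5 Ikbkg probe sets differed by −0.12 to 0.12 and overlapped. Without replicate 2 of both wild types, the arrays of high Xist, the split of each of the 10 genes moved by less than 1 SD of its replicates.

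**Figure D1:**
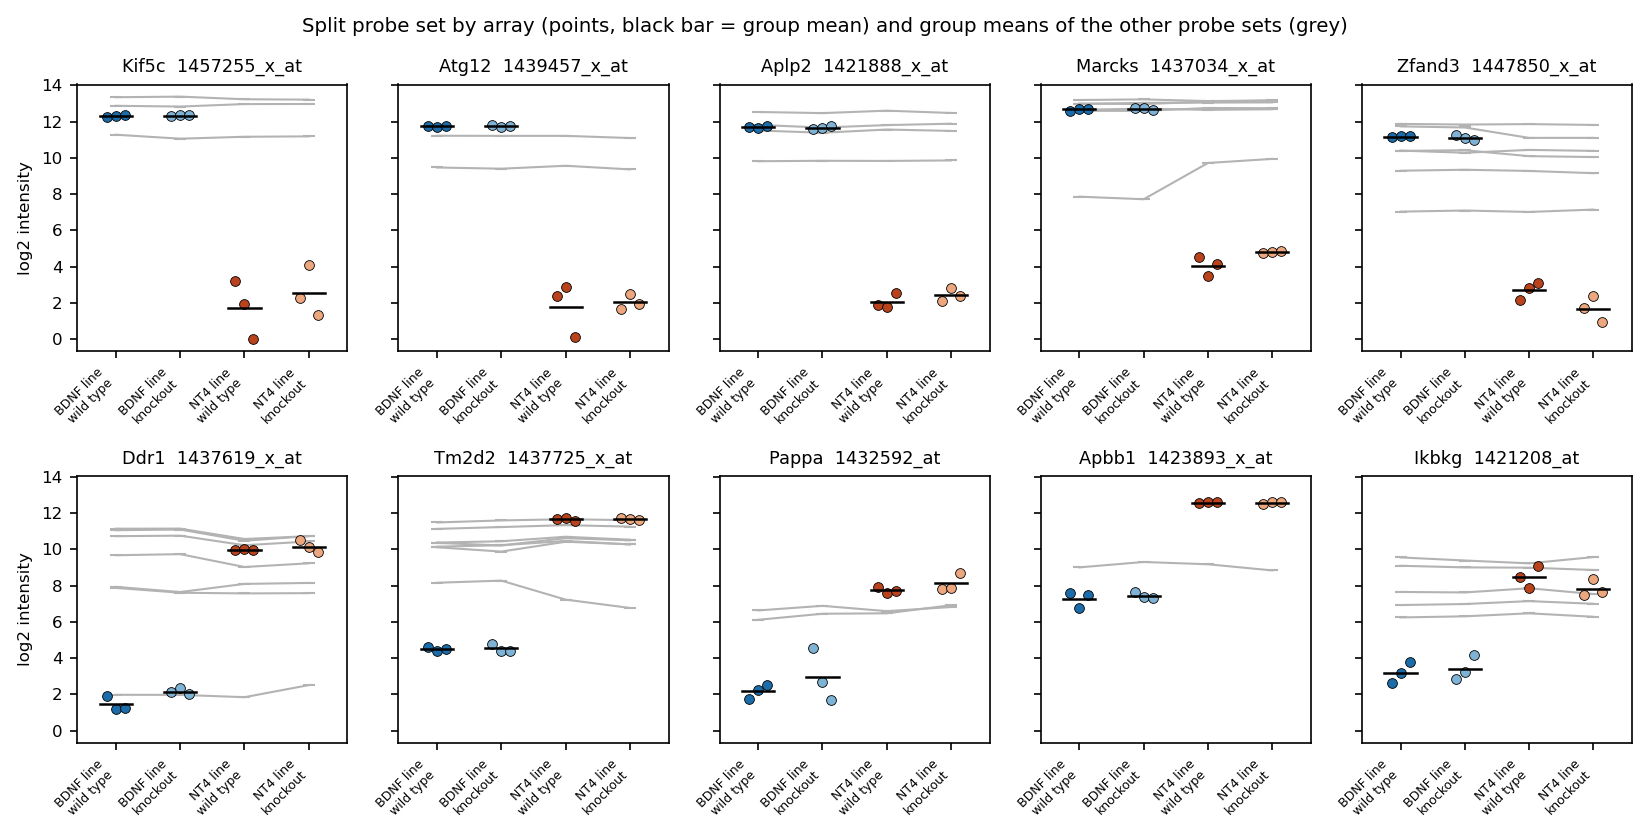
Log2 intensity of the split probe set of each gene on the 12 arrays (coloured points, 3 per group, black bar = group mean), with the group means of the gene's other probe sets in grey. In every panel the coloured points of the lines are far apart, and most grey lines run level. Marcks 1430311_at, the lowest grey line of its panel, is higher by 2.04 in the NT4 line.

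Over the 10 genes the split probe sets differed between lines by −10.18 to 8.26 (mean of the wild-type and knockout differences), 5 lower and 5 higher in the NT4 line. For the 43 other probe sets the median difference was 0.03 and the median absolute difference 0.12, against 0.01 and 0.22 over all 45037 probe sets. Of these 43, 31 differed by less than 0.25 and 39 by less than 0.5, where 55.0% and 77.5% of all probe sets did. In all, 16 of the 53 probe sets had no overlap between the lines, the 10 split ones and 6 others, beside 15.6% of all probe sets. Of the 16, 7 were higher in the NT4 line (7.02% of all were) and 9 lower (8.62%). A difference of at least 1 in both genotypes without overlap was present in 11, beside 7.88%. This contrast chose the genes, so nothing is read from these counts. The median of the other probe sets of a gene was −0.41 for Ddr1 and 0.18 for both Tm2d2 and Pappa. It was −0.15 for Apbb1, whose only other probe set it is, and between −0.06 and 0.10 for the remaining 6 genes. Its sign was opposite to the split in Kif5c, Aplp2, Marcks, Ddr1 and Apbb1 and the same in the other 5.

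**Figure D2:**
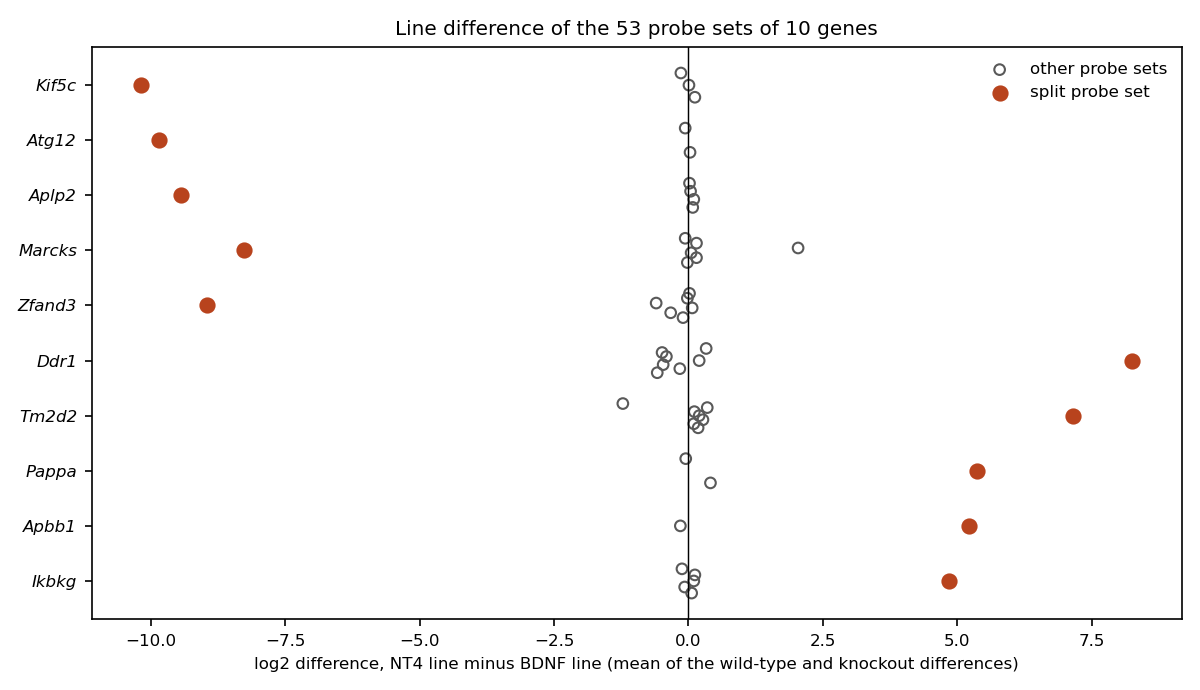
Log2 difference between the lines (NT4 line minus BDNF line, mean of both genotypes) for the 53 probe sets by gene. Filled points are the 10 split probe sets, from −10.18 to 8.26, and open points the 43 others, of which 39 lie within 0.5 of zero.

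The size of a split rests on values near the bottom of the scale. In the low line the split probe sets read 29.4 or less on every array, apart from Apbb1 at 108 to 201. With 16 added to every intensity before the logarithm, the line difference was −7.87 for Kif5c, −7.42 for Atg12, −7.31 for Aplp2, −7.44 for Marcks and −6.76 for Zfand3. On the higher side it was 5.80 for Ddr1, 6.40 for Tm2d2, 3.50 for Pappa and 3.51 for Ikbkg. The signs were the same.

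The annotation lists the sequence record from which a probe set was designed, which the choice of genes did not use. For Aplp2, Ikbkg, Pappa and Apbb1 the split probe set shares its record with others of the gene. The 2 Aplp2 probe sets from the same record, 1421887_a_at and 1421889_a_at, differed between lines by 0.08 and 0.10. In Ikbkg the corresponding values were 0.06 for 1421209_s_at and 0.12 for 1450161_at, in Pappa −0.05 for 1432591_at and in Apbb1 −0.15 for 1423892_at. In these 4 genes probe sets designed from 1 record read the lines differently. The split probe set was picked as the one with the largest line difference of its gene, so this describes the values and is no test. Differences under 0.25, as on the probe sets that share a record with it, were present in 55.0% of all probe sets. The split probe sets of Atg12, Zfand3 and Tm2d2 have a record of their own within the gene, and the annotation used here gives none for those of Kif5c, Marcks and Ddr1.

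By suffix, 8 of the 10 split probe sets were of the x type and 2 (Pappa and Ikbkg) had no letter. Among the 43 others 13 were of the x type, 9 of the a type, 2 of the s type and 19 without a letter. On the whole array 5.42% of probe sets are of the x type. The genes lie on 9 chromosomes, and only Zfand3 and Ddr1 share one, chromosome 17, and they split in opposite directions.

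Splits of this size were present beyond the 10 genes. Across the array 94 probe sets, 0.209% of those tested, differed by at least 4 in both genotypes with no overlap, 46 higher and 48 lower in the NT4 line. All 10 split probe sets are among them. Of the 94, 25 were of the x type (26.6%). A single symbol was given for 72, and 59 of these belonged to genes with further probe sets. In 47 of the 59 every further probe set differed by less than 1, where 89.2% of all single probe sets did. In none of the 59 was a second probe set of the gene as far apart, beside 0.209% of all probe sets. The same counts were not made for genes without such a split, so nothing is read from them. Of the 10 genes, 8 are among the 47, and Marcks and Tm2d2 are not.

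Whether the split probe set follows its gene was examined inside the line in which it read high, a measure that the choice of genes did not use but that was added after the values had been seen. Over the 6 arrays of that line, its log2 values were correlated with the mean of the gene's other probe sets that read above the array median, for 9 genes (Pappa had none). For Ddr1 the relation was close, with Pearson's r = 0.95 (exact permutation p = 0.00278, adjusted p = 0.025 over the 9 genes) and Spearman's rho = 0.94 (exact permutation p = 0.0167, adjusted p = 0.15). Without the 2 arrays farthest from the median, r was 0.98. NT4 knockout replicate 1 was the highest and NT4 knockout replicate 3 the lowest for the split probe set. On the wild-type arrays it was nearly level, at 1003 to 1033, so its spread comes mostly from the knockout arrays. The permutation treats the 6 arrays as exchangeable across genotypes, and r was not computed for unrelated probe sets. Its p therefore does not separate following the gene from shifts shared by whole arrays. Zfand3 came next at r = 0.82 (exact permutation p = 0.0431, adjusted p = 0.194, rho = 0.77 with p = 0.103 and adjusted p = 0.462), then Ikbkg at r = 0.76 (exact p = 0.0806, adjusted p = 0.242, rho = 0.37 with p = 0.497 and adjusted p = 0.895), where r was 0.04 without the 2 farthest arrays. For Zfand3 that value was 0.63.

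In the other 6 genes the split probe set was not shown to follow the rest. Pearson's r was 0.41 for Tm2d2, 0.22 for Aplp2, 0.14 for Kif5c, 0.04 for Marcks, 0.04 for Apbb1 and −0.16 for Atg12 (exact permutation p of 0.424, 0.699, 0.781, 0.932, 0.928 and 0.778, each with an adjusted p of 0.932). Spearman's rho was 0.60, 0.37, 0.03, 0.20, −0.14 and −0.09 (exact permutation p of 0.242, 0.497, 1, 0.714, 0.803 and 0.919, adjusted p of 0.725 to 1). Without the 2 farthest arrays r was 0.49, −0.04, −0.63, 0.34, −0.23 and −0.94. With arrays centred on their median, r was 0.89 for Zfand3 (exact permutation adjusted p = 0.0458) and 0.94 for Apbb1 (adjusted p = 0.0437), and 0.85 for Tm2d2 (adjusted p = 0.0687, rho = 0.83). For Zfand3 r was 0.82 to 0.89 under all settings run, and only the adjusted p crossed the threshold. For Apbb1 r was −0.36 after quantile normalization, so its value depends on the scaling. For Ddr1 the exact permutation adjusted p of r was 0.0125 to 0.0437 under the other scalings and the offset. That of rho was 0.025 after quantile normalization, 0.075 with centred arrays and 0.15 with the offset, so by rho the relation passed only after quantile normalization. Within 1 genotype there were only 3 arrays, too few for a correlation.

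**Figure D3:**
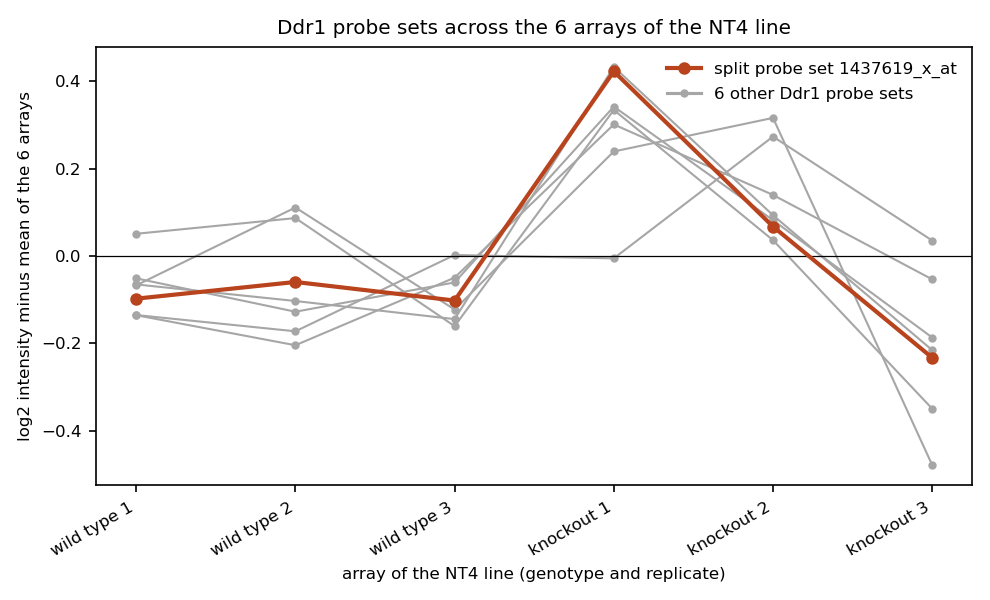
Log2 intensity of the Ddr1 probe sets on the 6 arrays of the NT4 line, each minus its own mean over these arrays. The split probe set (thick line) is highest on knockout replicate 1 and lowest on knockout replicate 3 and follows the mean of the 6 others (thin lines) at r = 0.95, though single probe sets depart from it on the knockout arrays.

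The loss of BDNF or of NT4 is a separate question from the line difference and was tested, although each effect shares its wild-type arrays with the contrast that chose the genes. In the BDNF knockout 0 of the 53 probe sets passed limma's threshold (adjusted p under 0.05), where 0.0178% of all probe sets did. At an unadjusted p under 0.05 there were 2, beside 6.72% of all. In the NT4 knockout 0 of 53 passed, beside 0.00444% of all, and 4 had an unadjusted p under 0.05, beside 5.62%. The difference of both effects gave 0 of 53, beside 0.0111%, with 2 at an unadjusted p under 0.05, beside 5.84%. The lowest adjusted p of any member was 0.542, 0.818 and 0.668 for the 3 contrasts by limma. These shares are low throughout, so a count of 0 is near the background.

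In the line where they read high, none of the split probe sets passed between knockout and wild type. In the BDNF line the log2 effect of the knockout was 0.03 for Kif5c (SE 0.77), 0.03 for Atg12 (SE 0.56), −0.04 for Aplp2 (SE 0.22), 0.04 for Marcks (SE 0.21) and −0.06 for Zfand3 (SE 0.32). In the NT4 line it was 0.17 for Ddr1 (SE 0.22), 0.01 for Tm2d2 (SE 0.13), −0.01 for Apbb1 (SE 0.20), 0.39 for Pappa (SE 0.59) and −0.64 for Ikbkg (SE 0.43). The standard errors share 1 estimate of spread over all 4 groups, so for genes with a line near the bottom of the scale they also hold the scatter of those low values.

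Where a split probe set read low, the knockout differences concern intensities under 30 in all genes but Apbb1, and their size depends on the offset. Ddr1 was at 4.02 to 5.06 in the BDNF knockout against 2.27 to 3.82 in the wild type, without overlap, a log2 difference of 0.70 that was 0.12 with 16 added to every intensity (limma's adjusted p = 0.542 without the offset). In the NT4 knockout Marcks also did not overlap with its wild type, at 0.76 and, with the offset, 0.42 (adjusted p = 0.818 without it). Zfand3 overlapped, at −1.03 and −0.23 (adjusted p = 0.852), and Kif5c at 0.85 and 0.19 (adjusted p = 0.956). In the BDNF knockout Pappa overlapped, at 0.80 and, with the offset, 0.32 (limma's adjusted p = 0.904 without it). That value leaned on knockout replicate 1, at 23.5 against 6.40 and 3.18, and ran from 0.01 to 1.45 with 1 array left out. None of these passed. In the NT4 knockout 7 of the 53 probe sets did not overlap with the wild type, beside 12.1% of all, and in the BDNF knockout 2, beside 10.6%. The share of the 7 is near that of all probe sets. Of the 7, 4 belonged to Tm2d2, at −0.19 for 1433473_x_at, −0.16 for 1439235_x_at, −0.14 for 1451134_a_at and −0.46 for 1456663_x_at (SE 0.19). Limma's adjusted p was 0.945, 0.953, 0.975 and 0.871 in the same order. The other Tm2d2 probe sets overlapped, among them the split one at 0.01 and 1438181_x_at at −0.05.

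**Figure D4:**
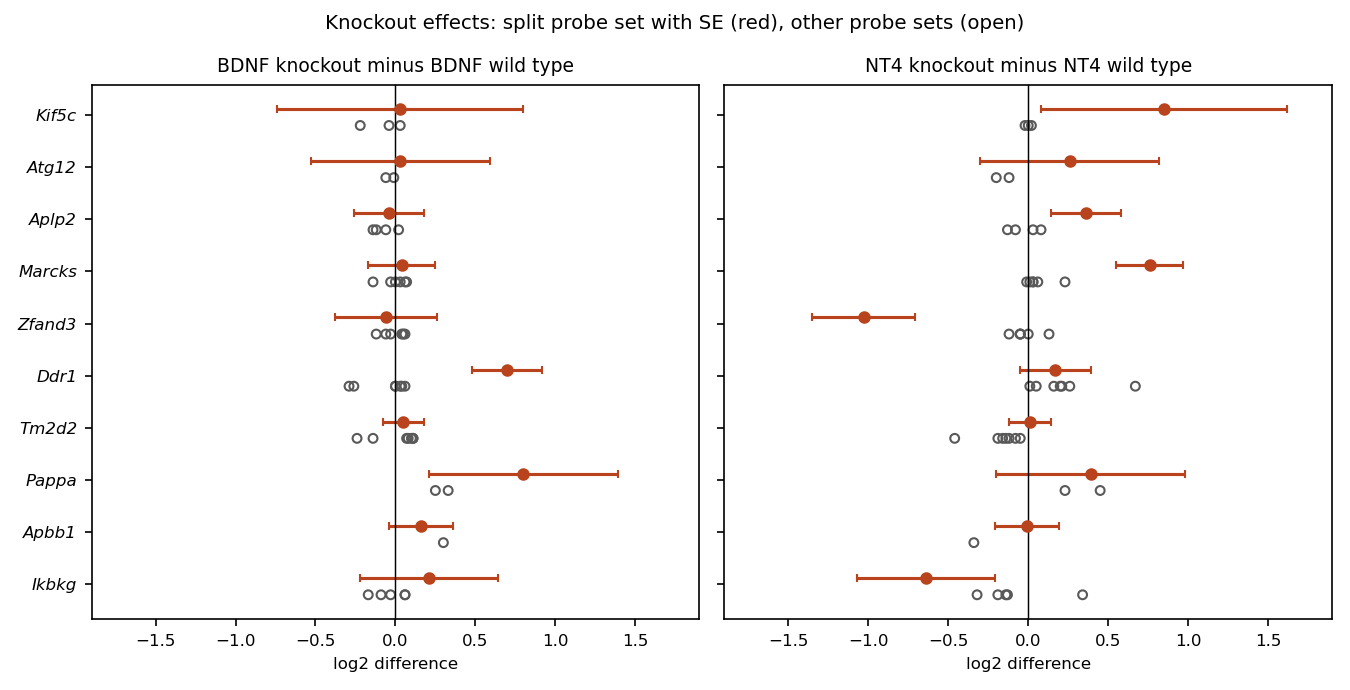
Log2 knockout effects of the 10 genes in the BDNF line (left) and the NT4 line (right). Filled points with bars are the split probe sets with limma's SE, open points the other probe sets. The largest values, 0.85 for Kif5c and −1.03 for Zfand3 in the NT4 line, belong to probe sets that read under 20 there and were 0.19 and −0.23 with the offset of 16, and 0 of the 53 passed the threshold in either line. In the BDNF line the largest, 0.80 for Pappa, was 0.32 with the offset.

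The second Apbb1 probe set, 1423892_at, is the only 1 of the 53 in the authors' lists, and it is in both. With 1 member probe set in each list, the count is too small to set against the share of all probe sets. How many probe sets of the array are in both lists, or in both with opposite signs, was not counted here. Nothing is therefore read from the membership in either list or in both. In the authors' deposited tables its signed fold change was 1.23 for BDNF (unadjusted p = 0.032805) and −1.26 for NT4 (unadjusted p = 0.027731). It read 529, 466 and 553 in the BDNF wild type, 678, 587 and 635 in the BDNF knockout, 572, 587 and 579 in the NT4 wild type and 468, 492 and 417 in the NT4 knockout. The BDNF knockout arrays were thus above and the NT4 knockout arrays below their own wild type, without overlap in either line. By limma the effects were 0.30 (SE 0.11, adjusted p = 0.649) and −0.34 (SE 0.11, adjusted p = 0.852), and their difference was −0.64 (SE 0.16, unadjusted p = 0.00217, adjusted p = 0.668). Neither the effects nor the difference passed. The Apbb1 split probe set had effects of 0.16 (SE 0.20) and −0.01 (SE 0.20).

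**Figure D5:**
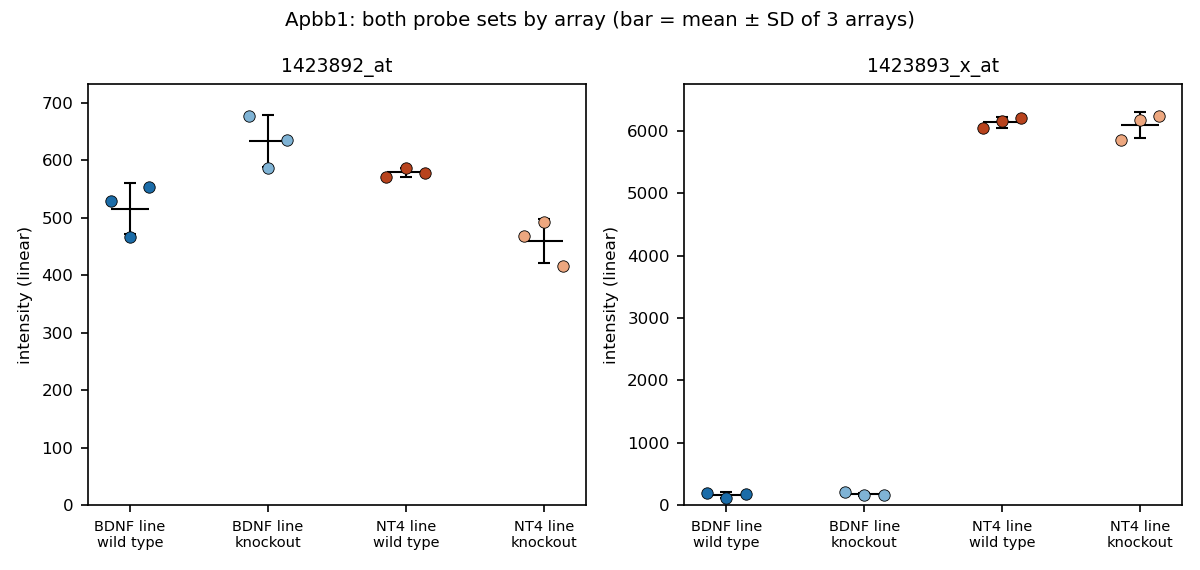
Linear intensity of both Apbb1 probe sets by array, with the mean and SD of 3 arrays per group. Probe set 1423892_at (left) reads 417 to 678 on all arrays, higher in the BDNF knockout and lower in the NT4 knockout than in the wild type of the line, while 1423893_x_at (right) reads 108 to 201 in the BDNF line and 5856 to 6248 in the NT4 line.

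Relatives and partners of the 10 proteins were examined through a list of 57 genes, of which 53 were measured, each on its brightest probe set. With the loss of BDNF 0 of 53 passed by limma (0.0178% of all probe sets did) and 4 had an unadjusted p under 0.05, a share near the 6.72% of all probe sets. With the loss of NT4 0 of 53 passed (0.00444% of all) and 1 had an unadjusted p under 0.05, beside 5.62% of all. Their median effects were 0.00 and −0.01, against −0.02 and 0.05 over all probe sets. The lowest p-values in the BDNF knockout belonged to Psen2, a subunit of gamma-secretase, at −0.98 (SE 0.27), to Tm2d3, a relative of Tm2d2, at −0.58 (SE 0.18), to Apba2, which binds the amyloid precursor protein, at −0.64 (SE 0.21), and to the kinesin adaptor Mapk8ip3 at −0.45 (SE 0.15). Their adjusted p was 0.493 to 0.598 by limma. Igfbp5, a substrate of the Pappa protease, stood at 0.43 (SE 0.15) in the NT4 knockout and Igf1 at 0.34 (SE 0.16).

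For the remaining genes named by the rule, neither knockout effect passed. In the BDNF and the NT4 knockout these were 0.06 and −0.23 for the kinesin-1 heavy chain Kif5b, and 0.27 and 0.07 for Atg10, an enzyme of the Atg12 pathway. Atg3, the enzyme that joins LC3 to lipid, stood at −0.04 and −0.24. The growth cone proteins Gap43 and Basp1 stood at −0.06 and −0.02, and at −0.03 and 0.04. Zfand2a was at 0.22 and −0.09, Zfand1 at 0.19 and 0.23, the collagen receptor Ddr2 at 0.40 and 0.01 and Tm2d1 at −0.21 and −0.09. The NF-kB signalling genes Tab2 and Map3k7 were at 0.08 and 0.14, and at 0.04 and 0.17.

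Between the wild types 1 of the 53 relatives was higher and 5 were lower in the NT4 line by limma, where 13.9% of all probe sets passed, so their share is near the background. Across all 12 arrays 5 of 53 did not overlap between the lines, no larger a share than the 15.6% of all probe sets, and they are named here after their values were seen. Trak2, an adaptor of kinesin-1 on mitochondria, read a mean of 1413 in the BDNF and 144 in the NT4 line on 1435016_at (line difference −3.31), while its other probe set differed by 0.23. Kif5b differed by −1.94 on 1418427_at and by −1.34 on 1418429_at, but by 0.02, −0.19 and −0.31 on 3 others and by 1.39 on the dim 1453524_at. The NF-kB subunit gene Rela, with a single probe set, differed by −2.79. For Zfand2a, all 4 probe sets were higher in the NT4 line, by 0.29 to 0.42, but 1415941_s_at and 1449702_at overlapped. For Igf1r 1 of 5 was without overlap, at −0.31, and the others differed by −0.18, −0.13, 0.26 and 0.53.

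Markers of other cell types were compared as the sum of their probe set intensities per array, a measure led by the brightest genes. In the BDNF wild type the mean was 11452 for the red cell marker Hbb-y and 10803 for the glial marker Fabp7. Dimmer members can differ from such a sum. From the BDNF to the NT4 wild type the glial marker Foxd3 went from 148 to 283 (limma's adjusted p = 0.0244). S100b, also glial, went from 1235 to 878 (adjusted p = 0.135). Cartilage markers (6 of 6 measured, among them Col2a1 and Acan) summed to 10912 to 16752 in the BDNF and 7464 to 10005 in the NT4 wild type, and to 11080 to 24457 and 9209 to 17229 in the knockouts. Macrophage markers (7 of 7) ran from 2154 to 2321 and from 1608 to 2460 in the wild types, and from 2637 to 3413 and 2930 to 4829 in the knockouts. For connective tissue (6 of 6) the wild types held 22419 to 24336 and 16597 to 28496. In the same order, glial markers (5 of 7) held 14873 to 16832 and 16181 to 16712, endothelial markers (5 of 5) 1968 to 2373 and 1280 to 2012, skeletal muscle markers (6 of 6) 518 to 894 and 581 to 2530, and red cell markers (4 of 5) 11905 to 13053 and 8775 to 12029. None of these markers was at 0, and the lowest group mean was 30.7. In the NT4 knockout 5 of the 7 macrophage markers had an unadjusted p under 0.05, beside 5.62% of all probe sets, and none passed by limma. Sensory neuron markers (7 of 8) summed to 59749 to 64050 and 55354 to 60500. The part of these cells in the line differences of the 10 genes was not tested. In whole ganglia fewer cells of a type and less RNA per cell cannot be told apart.

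By Pearson's r of log2 intensity over the 12 arrays, the probe set of another gene most like each split probe set was itself split by line. It was Mapre1 for Kif5c (r = 0.9962, line difference −1.21), Bsn for Atg12 (0.9977, −5.75), Gsn for Aplp2 (0.9990, −5.76), Fam227b for Marcks (0.9990, −4.72) and Cnn3 for Zfand3 (0.9989, −8.02). On the higher side it was Tm2d2 for Ddr1 (0.9971, 7.16), Serf1 for Tm2d2 (0.9990, 3.62), Gemin2 for Pappa (0.9902, 1.63), Mcph1 for Apbb1 (0.9990, 4.95) and Fam20b for Ikbkg (0.9866, 1.65). The 12 arrays share only 2 lines, so these values restate the line difference in large part.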

How the data were processed

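The authors deposited a table of 1 linear intensity per probe set and array, and 2 lists of probe sets with a signed fold change (a score), a difference of means (a score) and an unadjusted p-value, per the file headers. RNA was amplified and biotinylated with a whole-transcript kit, per the labels' protocols. The algorithm, background handling and scaling behind the intensities are not given in the sources used here. There are no read counts here, and precision is limited by the number of arrays. The 12 per-array columns of the lists were not used.

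Intensities were taken to log2 without an offset, 64 control probe sets were left out, and 4 group means were fitted to all 45037 others with limma 3.58.1 in R 4.3.3 (8 residual and 2.27 prior degrees of freedom). Tests were two-sided, with Benjamini-Hochberg adjustment over all probe sets and a threshold of 0.05. The median standard error of a knockout effect was 0.20. Of a gene's probe sets, the split one has the largest mean line difference. Symbols came from GEO's platform annotation and chromosomes from GRCm38.p6, through gene identifiers. Named relatives are the 2 of each list with the lowest unadjusted p over both knockouts, and likeness took the highest r among probe sets of 1 symbol with a mean above the median of all. Members and lists were chosen with earlier results of these data known. P-values measure the spread between the samples called biological replicates. Alternatives were quantile normalization, centred arrays, an offset of 16, a filter on dim probe sets, a replicate block, fits of 1 line, and left-out arrays.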

Additional observations from a re-analysis of the deposited data

Results flagged for a closer look

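Apbb1 on probe set 1423892_at was looked at again because its arrays moved in opposite directions with the loss of each neurotrophin. All 3 BDNF knockout arrays were above, and all 3 NT4 knockout arrays below, the wild-type arrays of their line. The difference of the effects was −0.64 on the log2 scale (SE 0.16) and did not pass by limma (adjusted p = 0.668, unadjusted p = 0.00217). With 1 array left out it ran from −0.69 to −0.57.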

How the results depend on the processing

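Over 68 results, 1114 values were computed under alternatives: 1026 kept direction and side of the threshold, moved by less than the replicate spread or, for counts, stayed within 1.5 times. The others were 21 that changed sign (13 of these with 1 array left out), 24 line differences that moved, 40 counts of calls over all probe sets that were lower, 1 that was higher, and 2 correlations that newly passed (0.89 for Zfand3 and 0.94 for Apbb1, with centred arrays). No member passed in a knockout contrast or their difference under any alternative run, left-out arrays included. Over all probe sets, the BDNF knockout had 8 calls: 5 with centred arrays, 4 without replicate 2 of both wild types, 0 with the 6 arrays of the line alone, and 4 to 10 with 1 array left out. The NT4 knockout had 2: 1, 0, 0 and 0 to 5. Their difference had 5: 3 centred, 1 without both replicates 2, and 1 to 4 with 1 left out. The filter on dim probe sets gave 3673 calls for the wild types (6275 without it) and 4376 for the knockouts (7019), with fewer probe sets tested. Deviations of same-numbered arrays correlated at 0.058, 0.108 and −0.125 in the BDNF line and −0.251, 0.148 and −0.05 in the NT4 line. Arrays of different number gave −0.152 to 0.133 and −0.162 to 0.209. So few values cannot decide whether replicate numbers pair the samples. With the replicate number as a block the calls were 4, 0 and 2. The offset of 16 moved the line difference to −7.31 for Aplp2, −7.42 for Atg12, 5.80 for Ddr1, 3.51 for Ikbkg, −7.87 for Kif5c, −7.44 for Marcks, 3.50 for Pappa, 6.40 for Tm2d2 and −6.76 for Zfand3. It moved the difference from the gene's other probe sets to −7.37, −7.40, 6.20, 3.46, −7.88, −7.54, 3.36, 6.22 and −6.70 in the same order, and quantile normalization moved that of Tm2d2 to 6.84. For Zfand3 1441948_x_at quantile normalization gave −0.47. Small knockout effects of split probe sets changed sign. Without replicate 2 of both wild types the BDNF effect was −0.11 for Apbb1 and −0.01 for Tm2d2. The NT4 effect was 0.01 for Apbb1 after quantile normalization, −0.01 for Atg12 with the offset and −0.10 for Tm2d2 with centred arrays. With 1 array left out, the BDNF effect ranged from −0.11 to 0.31 for Apbb1, −0.09 to 0.00 for Aplp2, −0.18 to 0.50 for Ikbkg, −0.00 to 0.07 for Kif5c, −0.08 to 0.12 for Tm2d2 and −0.13 to 0.01 for Zfand3. The NT4 effect ranged from −0.03 to 0.02 for Apbb1, −0.58 to 0.80 for Atg12, −0.00 to 1.60 for Kif5c and −0.04 to 0.05 for Tm2d2. The within-line r changed sign for Kif5c (−0.04) and Apbb1 (−0.36) after quantile normalization and for Atg12 (0.17) with centred arrays. The cause of these shifts was not tested. The correlations under other scalings were chosen after seeing the data. Low intensities limit the size of the splits, and 3 arrays per group limit the knockout tests.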
